A study of Mus musculus with 12 samples.

Results

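The growth hormone and insulin-like growth factor (IGF) axis is represented here by receptors, growth factors and the binding proteins that hold those growth factors outside cells. Of 10 listed genes, 9 had a named probe set: the receptors Ghr and Igf1r, the ligands Igf1 and Igf2, and the binding protein genes Igfbp2, Igfbp3, Igfbp4, Igfbp5 and Igfbp6. The prolactin receptor gene Prlr, also listed, was not analysed here. These 9 genes are among 18194 measured, and 26 of 45101 probe sets are named for them. Each gene is described by the probe set (the group of short probes that reads its transcript) chosen by its brightness, as the highest mean signal over the 12 arrays. The brightest and the next probe set averaged 9.10 and 8.68 log2 units for Ghr and 11.14 and 10.86 for Igfbp5. They were closest for Igf2, at 5.66 and 5.63, and farthest apart for Igfbp4, at 8.86 and 7.73. Igfbp2 and Igfbp6 have 1 probe set each.

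The arrays read total RNA of mouse prostate at 16 weeks of age, in 4 groups of 3: Med1 knockout ventral prostate, wild-type ventral prostate, Med1 knockout lateral prostate and wild-type lateral prostate. The labels give neither strain, nor the deleted part of Med1, nor the cells that lost it. They do not state that replicates are different mice, so each p-value reflects sample-to-sample spread that could be technical. The labels list no treatment.

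Growth hormone from the pituitary binds its receptor Ghr and, through the kinase Jak2 and STAT5 transcription factors, raises Igf1 transcription, mostly in liver but also in other tissues. IGF1 and IGF2 act through the receptor tyrosine kinase Igf1r, and the IGF binding proteins carry them, shield them from the receptor or release them when proteases cut. In the rodent prostate Igf1 is made mainly by stromal cells, while Igf1r is found on the epithelium. Med1 belongs to Mediator, a large coactivator that bridges DNA-bound nuclear receptors and the RNA polymerase II machinery.

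The labels were checked first. Med1 had 8.90, 8.99 and 8.68 log2 units in the ventral knockout arrays (replicates 1 to 3), against 9.48, 9.52 and 9.29 in ventral wild type, a difference of -0.57 ± 0.12 (SE; limma adjusted p = 0.0119). Laterally, Med1 had 8.40, 8.34 and 8.44 in the arrays labelled knockout, against 8.58, 8.74 and 8.23 in wild type. These lateral groups overlap (-0.13 ± 0.12; limma adjusted p = 0.622), so the lateral arrays are called labelled knockout, and where both lobes are named together or lobes are compared, knockout means this label. The ventral fall was not called without ventral knockout replicate 3 (-0.48, limma adjusted p = 0.0518). The ventral Med1 difference minus the lateral one was -0.44 ± 0.18 and was not called (limma adjusted p = 0.136). A difference between lobes in the loss of Med1 signal was thus not shown. Krt8, Krt18, Epcam and Cdh1, which mark epithelium, and Hoxb13 ranked high among all probe sets on every array, the lowest being Cdh1 at percentile 96.5. These ranks alone do not tell prostate from other epithelium. Of prostate secretory genes, Pbsn and Msmb ranked at percentile 98.7 or above on every array, while Tgm4 was at 75.5 to 83.5 in ventral knockout. Svs5, a seminal vesicle gene, was at 99.98 on the lateral wild-type arrays. Genes of seminal vesicle secretion, a neighbouring gland, set 2 arrays apart from their groups: their summed linear signal was 799 in ventral wild-type replicate 3 against 395 and 416 in the other two, and 1769 in lateral labelled-knockout replicate 3 against 8750 and 9303 in the other two. Members that gained or lost a call without both arrays are given so as well.

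Promoters are printed for Ghr, the member whose signal differed by genotype label in both lobes, and for Igfbp5, the member that was higher in the lateral lobe under every scaling tried. RefSeq (GRCm38.p6) lists 2 starts for Ghr, on the minus strand of chromosome 15, and their upstream windows of 250 bases are chr15:3583353-3583602 and chr15:3581843-3582092. The Igfbp5 window is chr1:72874866-72875115, on the minus strand. Capitals mark matches, on either strand, to TATAAA, to AGAACA, a core motif of androgen receptor sites, or to TTCNNNGAA, the core of STAT sites. Overlaps between motifs were not merged, and all are given 5′ to 3′.
Ghr first start: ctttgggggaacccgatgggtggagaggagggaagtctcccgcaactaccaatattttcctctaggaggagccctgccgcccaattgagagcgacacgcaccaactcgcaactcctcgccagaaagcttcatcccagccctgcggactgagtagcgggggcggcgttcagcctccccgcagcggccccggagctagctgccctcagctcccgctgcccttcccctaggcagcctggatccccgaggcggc
Ghr second start: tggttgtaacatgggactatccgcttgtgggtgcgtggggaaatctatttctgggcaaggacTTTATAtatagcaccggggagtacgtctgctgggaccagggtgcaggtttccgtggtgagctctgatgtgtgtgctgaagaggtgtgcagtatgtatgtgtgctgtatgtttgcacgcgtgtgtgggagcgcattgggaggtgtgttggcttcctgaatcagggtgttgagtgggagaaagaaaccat
Igfbp5: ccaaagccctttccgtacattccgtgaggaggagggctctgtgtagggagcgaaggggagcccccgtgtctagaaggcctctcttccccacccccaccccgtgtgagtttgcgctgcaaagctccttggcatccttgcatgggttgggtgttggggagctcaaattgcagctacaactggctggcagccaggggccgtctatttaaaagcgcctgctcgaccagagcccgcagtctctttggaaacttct
The first Ghr window holds none of the motifs and has a GC content of 65.6%, while the second, with 52% GC, holds 1 match, to TATAAA, on the opposite strand. The Igfbp5 window, with 58.8% GC, holds none. Among 32851 windows of this length, 12.4% hold TATAAA, 16.1% AGAACA and 7.02% TTCNNNGAA, and the median GC content is 52.4%. A match or its absence describes only these letters.

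Ghr, the growth hormone receptor, was the member that was called higher both in ventral Med1 knockout and in the lateral arrays labelled knockout. It had 10.49, 10.38 and 10.55 log2 units in ventral knockout, against 9.93, 10.19 and 10.10 in ventral wild type. In the lateral lobe it had 8.16, 8.26 and 8.20 in the arrays labelled knockout, against 7.56, 7.85 and 7.53 in wild type. Every array labelled knockout lay above every wild-type array of its lobe. The group means were 10.47 ± 0.084 in ventral knockout and 10.08 ± 0.13 in ventral wild type, and 8.21 ± 0.050 in lateral labelled knockout and 7.65 ± 0.18 in lateral wild type (SD, n = 3 each). Ghr was thus 1.32-fold higher in ventral knockout (0.40 ± 0.10, SE; limma adjusted p = 0.0276) and 1.48-fold higher in lateral labelled knockout (0.56 ± 0.10; limma adjusted p = 0.00481). The ventral effect minus the lateral effect was -0.17 ± 0.14, with a 95% interval of -0.48 to 0.14 (limma adjusted p = 0.492).

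The ventral rise of Ghr did not pass with some single arrays left out. It was 0.32 without wild-type replicate 1 (limma adjusted p = 0.113), 0.41 without wild-type replicate 3 (0.0682), 0.39 without knockout replicate 1 (0.0700) and 0.36 without knockout replicate 3 (0.0857), and none of these passed. Without both arrays that stand apart it was 0.41 (limma adjusted p = 0.0900). The lateral rise passed with each of the 12 arrays left out in turn, at 0.50 to 0.67, and without both arrays that stand apart (0.57; limma adjusted p = 0.0285). In bulk tissue fewer cells of a type and less RNA per cell cannot be told apart, and this holds for every member below.

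The 3 probe sets of Ghr did not move alike. Laterally, the second brightest also rose (0.79 ± 0.12; limma adjusted p = 0.00172 over all probe sets), and the third was at 0.47 ± 0.14 (limma adjusted p = 0.0899). In the ventral lobe the second was at 0.34 ± 0.12 (limma adjusted p = 0.108) and the third at -0.23 ± 0.14 (limma adjusted p = 0.369), the opposite direction to the brightest. The mean of the 3 probe sets differed by 0.17 in the ventral lobe (limma adjusted p = 0.244), and for that mean the ventral minus lateral effect passed (-0.44; limma adjusted p = 0.0380). A name ending in _s_at marks probes shared by several transcripts and _a_at probes shared by transcripts of 1 gene, per the maker's naming. The brightest Ghr set is of the first kind, as are the brightest sets of Igfbp3 and Igfbp5, so related transcripts may add to their signal.

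**Figure D1:**
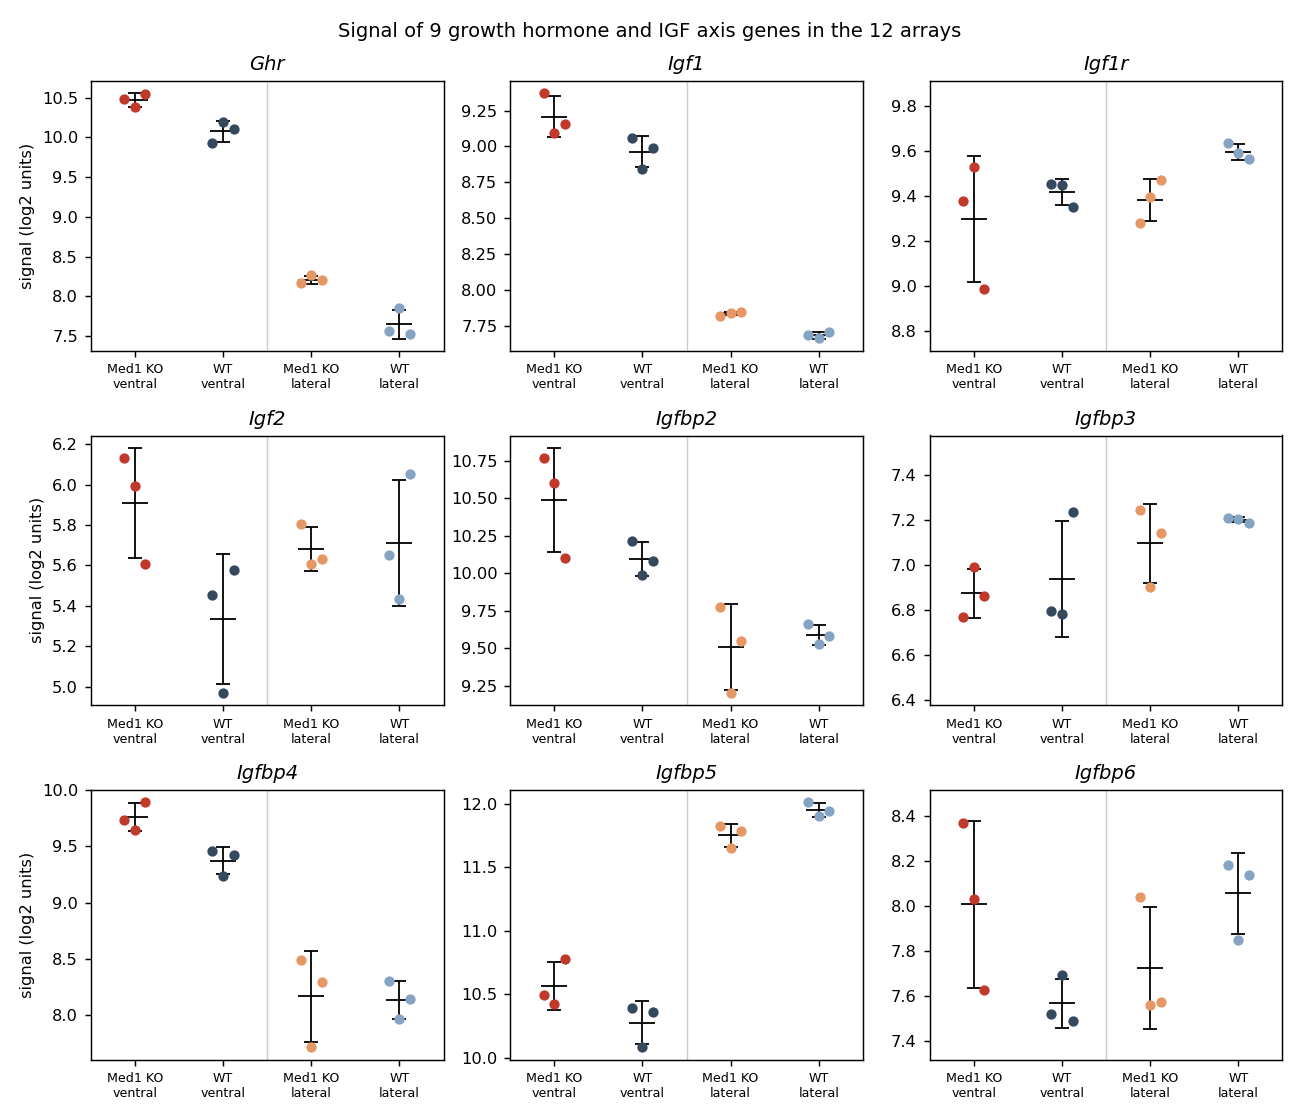
Signal of each of the 9 genes (log2 units, vertical axis, a scale of its own per gene) in the 4 groups, with a point per array and bars for the mean ± SD (n = 3 each). Ghr is higher in every array labelled knockout than in every wild-type array of the same lobe, and Igfbp5 is higher in every lateral array than in every ventral array.

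Igf1r, the receptor that both IGFs use, passed no test between genotypes. It had 9.38, 9.53 and 8.99 log2 units in ventral knockout, against 9.45, 9.45 and 9.35 in ventral wild type. Its lateral values were 9.28, 9.40 and 9.47 in labelled knockout, against 9.64, 9.59 and 9.57 in wild type. The ventral groups overlap, while each lateral labelled-knockout array lay below each wild-type array, and neither difference passed (-0.12 ± 0.12 and -0.21 ± 0.12; limma adjusted p = 0.571 and 0.340). Their 95% intervals were -0.37 to 0.13 and -0.47 to 0.037. None of its 5 probe sets passed in either lobe.

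Igf1, the growth factor that growth hormone induces, followed the same order of groups as Ghr without passing the test between genotypes. It had 9.37, 9.10 and 9.16 log2 units in ventral knockout, against 9.06, 8.84 and 8.99 in ventral wild type, and 7.82, 7.84 and 7.85 in lateral labelled knockout, against 7.68, 7.66 and 7.71 in lateral wild type. The genotypes do not overlap in either lobe. The ventral difference was 0.24 ± 0.089 (limma adjusted p = 0.107; 95% interval 0.052 to 0.44) and the lateral one 0.15 ± 0.089 (limma adjusted p = 0.384; -0.041 to 0.34). Of its 4 probe sets, all 4 were above 0 in the ventral lobe, at 0.15 to 0.34, while laterally 2 were above and 2 below.

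Igf2, the fetal growth factor that is also an Igf1r ligand, was dim, between percentiles 28.3 and 50.1 of all probe sets. It had 6.13, 5.99 and 5.61 log2 units in ventral knockout, against 5.45, 4.97 and 5.58 in ventral wild type. Every knockout array lay above every wild-type array, the nearest pair by little. The ventral difference, 0.58 ± 0.18, did not pass (limma adjusted p = 0.0635; 95% interval 0.19 to 0.97). The lateral groups overlap, with a difference of -0.029 ± 0.18 (limma adjusted p = 0.951). Its second probe set, of nearly equal brightness, differed by 0.056 ± 0.14 in the ventral lobe (limma adjusted p = 0.858).

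Among the binding proteins none passed between genotypes at its brightest probe set. Igfbp5, a binding protein with affinity for matrix, had 10.49, 10.42 and 10.78 log2 units in ventral knockout, against 10.39, 10.08 and 10.36 in ventral wild type, and 11.82, 11.65 and 11.79 in lateral labelled knockout, against 12.01, 11.90 and 11.94 in lateral wild type. The knockout arrays were all above wild type in the ventral and all below in the lateral lobe, at 0.29 ± 0.11 and -0.20 ± 0.11 (limma adjusted p = 0.122 and 0.348). The ventral minus lateral effect was 0.49 ± 0.16 (limma adjusted p = 0.0674). Its second probe set, averaging 10.86 over all arrays, was at -0.022 ± 0.13 in the ventral lobe (limma adjusted p = 0.948 over all probe sets). In the lateral lobe that set was at -0.29 ± 0.13 (limma adjusted p = 0.275), so its signs did not differ. The ventral minus lateral effect of that set was 0.27 ± 0.18 (limma adjusted p = 0.419).

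Igfbp6, which prefers IGF2 and has 1 probe set, had opposite signs in the lobes. It had 8.37, 8.03 and 7.63 in ventral knockout, against 7.52, 7.69 and 7.49 in ventral wild type, and 8.04, 7.56 and 7.58 in lateral labelled knockout, against 8.18, 7.85 and 8.14 in lateral wild type. The genotypes overlap in both lobes. Its differences were 0.44 ± 0.17 and -0.33 ± 0.17 (limma adjusted p = 0.131 and 0.315), and the ventral minus lateral effect was 0.77 ± 0.24 (limma adjusted p = 0.0638).

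Igfbp4, a binding protein that inhibits IGF action until cut by the protease PAPP-A, had 9.73, 9.65 and 9.89 in ventral knockout, against 9.46, 9.24 and 9.42 in ventral wild type (0.39 ± 0.16; limma adjusted p = 0.159). Its ventral groups do not overlap, whereas in the lateral lobe labelled knockout (8.49, 7.71 and 8.30) spanned wild type (8.30, 7.96 and 8.14). Igfbp2, a binding protein of epithelial and many other cells, had 10.76, 10.60 and 10.10 in ventral knockout, against 10.22, 9.99 and 10.08 in ventral wild type (0.39 ± 0.16; limma adjusted p = 0.150). Its lateral difference was -0.083 ± 0.16 (limma adjusted p = 0.828), and its groups overlap in both lobes.

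Igfbp3, the main IGF carrier of blood, differed by -0.064 ± 0.12 (ventral) and -0.10 ± 0.12 (lateral; limma adjusted p = 0.794 and 0.693), with arrays between 6.77 and 7.24 in all 4 groups. Its dimmer probe set behaved otherwise. It averaged 5.91 in ventral knockout and 5.49 in ventral wild type (0.42 ± 0.11; limma adjusted p = 0.0428), and 5.97 in lateral labelled knockout and 6.40 in lateral wild type (-0.43 ± 0.11; limma adjusted p = 0.0548). The difference between these effects passed, at 0.85 ± 0.16 (limma adjusted p = 0.00644). The ventral sign thus differs between the Igfbp3 probe sets, while the lateral sign is negative in both.

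**Figure D2:**
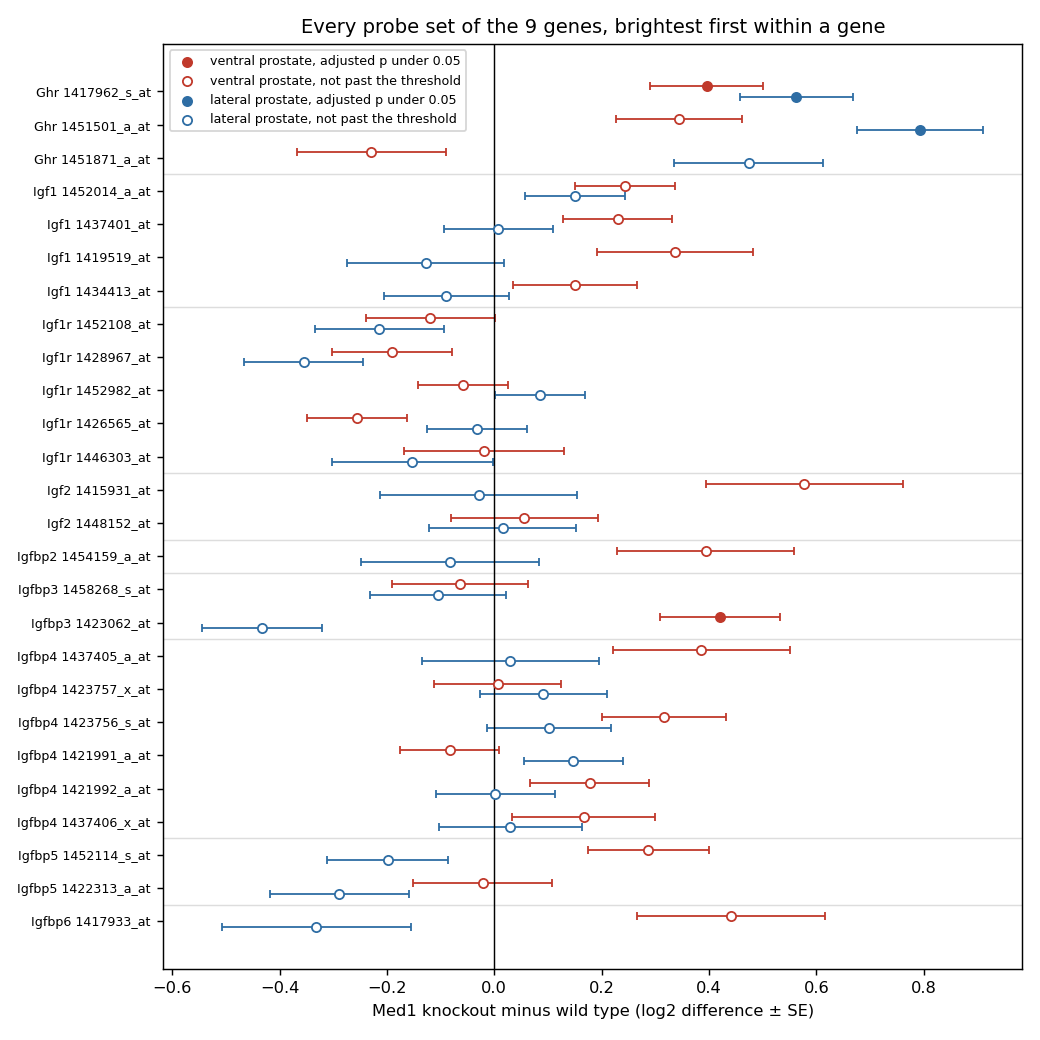
Knockout minus wild type (log2 difference ± SE, horizontal axis) for each of the 26 probe sets, brightest first within a gene, with the ventral lobe in red above the lateral lobe in blue and filled points for limma adjusted p under 0.05 over all probe sets. Of 26 probe sets, 2 passed as higher in the ventral lobe and 2 in the lateral lobe, and 0 passed as lower in either.

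Counted together, 1 of 9 members (Ghr) was called higher in the ventral knockout and 0 lower by limma, beside 5.88% of all genes called higher and 3.2% lower. Unadjusted p-values were under 0.05 for 7 members, all higher in knockout, where 24.7% of all genes had such a p in either direction. Knockout arrays lay wholly above wild type for 5 members (Ghr, Igf1, Igf2, Igfbp4 and Igfbp5) and wholly below for 0, beside 14.9% and 14.6% of all genes. The median difference was 0.39 over the members and -0.020 over all genes, both at the brightest probe sets. The members were chosen with earlier results of these data known, so these shares and medians do not test the list. With the mean of a gene's probe sets, Ghr was at 0.17, Igfbp4 at 0.16, Igfbp5 at 0.13 and Igf2 at 0.32. Each of these was lower than at its brightest set, while Igfbp3 turned to 0.18. Igfbp2 and Igfbp6 have 1 probe set each. Leaving out single arrays added calls: without ventral knockout replicate 3, Igf2 (0.73), Igfbp2 (0.59) and Igfbp6 (0.63) passed and Ghr did not, Igf2 passed without lateral wild-type replicate 3, and Igfbp4 passed without lateral labelled-knockout replicate 2.

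Laterally the members did not share this direction. Again 1 of 9 (Ghr) was called higher and 0 lower by limma, beside 1.62% and 3.42% of all genes, and 1 had an unadjusted p under 0.05, beside 19.5%. Labelled-knockout arrays lay wholly above wild type for 2 members (Ghr and Igf1) and wholly below for 2 (Igf1r and Igfbp5), beside 11.2% and 15.7% of all genes. The median difference was -0.083 over the members and -0.0025 over all genes. For the ventral minus lateral effect 0 members were called by limma, beside 6.51% of all genes called higher and 2.8% lower. Of the members, 3 (Igf2, Igfbp5 and Igfbp6) had an unadjusted p under 0.05 there, as did 25.5% of all genes. This effect passed for Igfbp5 without ventral knockout replicate 2 (0.56), for Igfbp2 (0.67) and Igfbp6 (0.96) without ventral knockout replicate 3, and for Igfbp6 without lateral labelled-knockout replicate 1 (0.93).

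**Figure D3:**
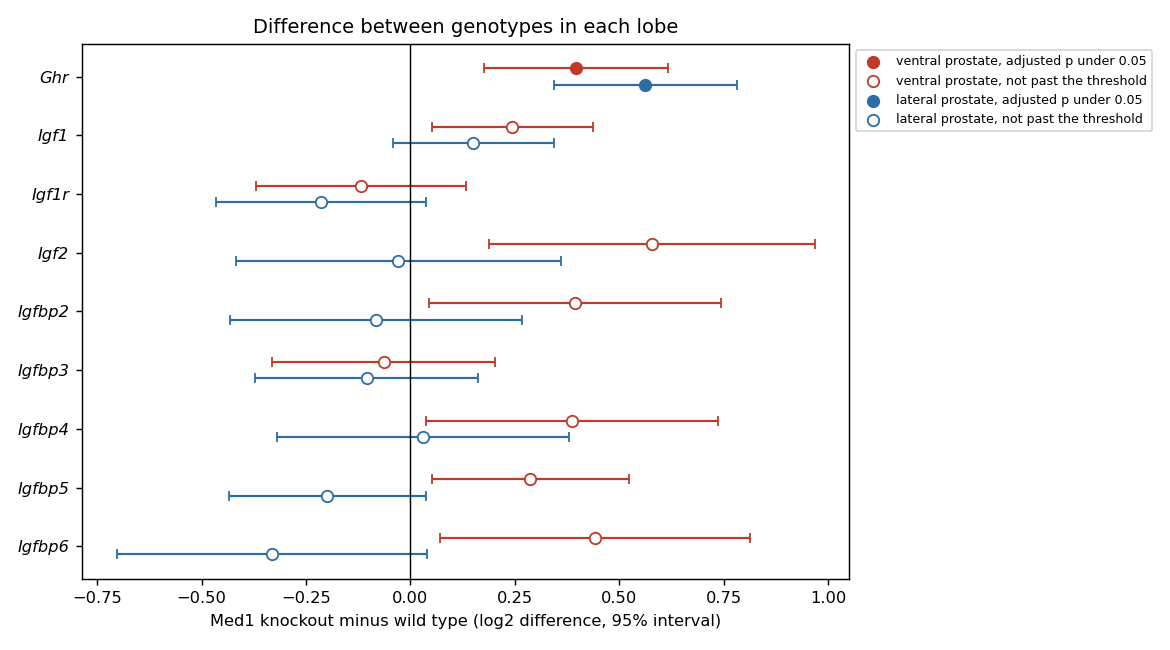
Knockout minus wild type for the 9 genes (log2 difference with its 95% interval, horizontal axis), ventral in red above lateral in blue, with filled points where limma's adjusted p was under 0.05. Ghr is the gene with a filled point in each lobe, at 0.40 and 0.56, while Igfbp5 and Igfbp6 lie on opposite sides of 0 in the lobes. Each gene is read by its brightest probe set, and the second Igfbp5 set was below 0 in both lobes.

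Markers of stroma moved with genotype in the same arrays, in opposite directions in the lobes. In the ventral lobe 12 of 21 fibroblast and matrix genes were called higher in knockout and 1 lower (median 0.44), and their summed linear signal was 17105 to 18859 in knockout and 13289 to 15452 in wild type. Laterally 0 were called higher and 8 lower (median -0.33), with sums of 10058 to 12092 in labelled knockout and 13467 to 14310 in wild type. Smooth muscle genes showed the same split, with 9 of 15 higher and 0 lower in the ventral lobe (median 0.42) and 0 higher and 6 lower in the lateral lobe (median -0.40). Their sums were 39699 to 44628 in knockout and 29673 to 34269 in wild type for the ventral lobe, and 41644 to 49610 in labelled knockout and 55454 to 58899 in wild type for the lateral lobe. Without both arrays that stand apart the fibroblast counts were 8 higher and 1 lower in the ventral lobe and 0 higher and 5 lower in the lateral lobe, and the smooth muscle counts were 6 higher and 0 lower, and 0 higher and 4 lower. The part of stroma in the members' values, Ghr included, was not tested.

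**Figure D4:**
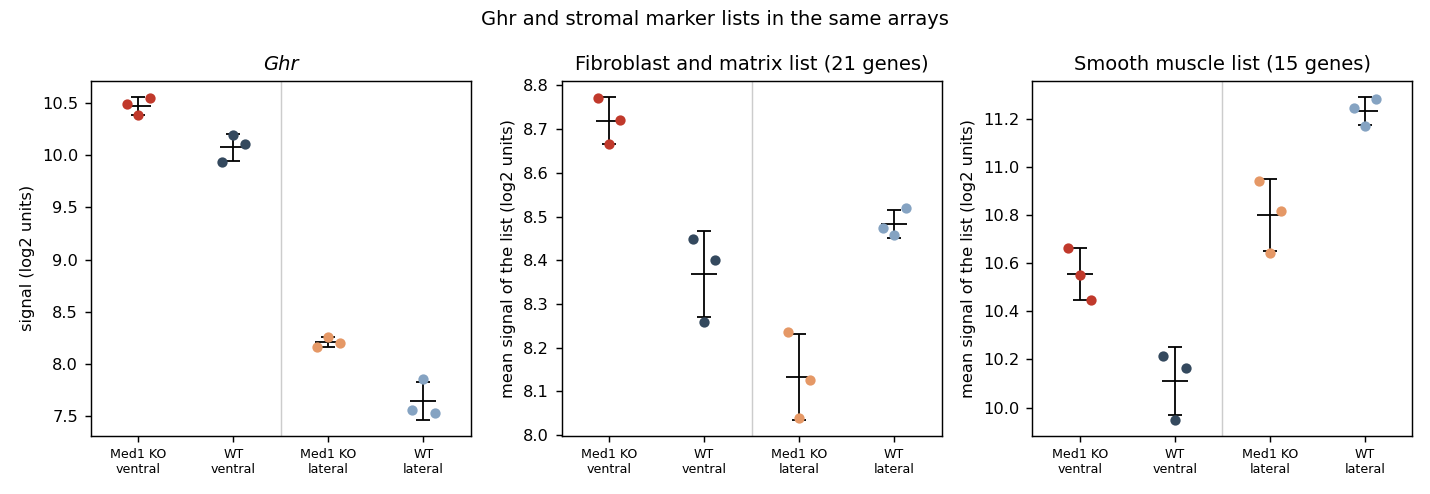
Signal of Ghr and mean signal of the fibroblast and matrix list (21 genes) and the smooth muscle list (15 genes), in log2 units, by group, with a point per array and bars for the mean ± SD (n = 3 each). Knockout arrays lie above wild type in both lobes for Ghr, and above wild type in the ventral but below it in the lateral lobe for both lists.

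Other marker lists moved less or in other ways. Among luminal epithelial genes 0 of 11 were called higher and 1 lower in the ventral lobe, and 0 in either direction in the lateral lobe. Basal epithelium had 0 of 9 called in the ventral and 1 lower in the lateral lobe, and endothelium 0 of 12 in both. Leukocyte genes had 2 of 19 higher in the ventral and 1 lower in the lateral lobe, nerve genes 2 of 9 higher in the ventral and 4 lower in the lateral lobe, and adipocyte genes 3 of 9 lower in the ventral and 2 lower in the lateral lobe. Urothelial genes had 0 of 8 called in the ventral and 2 higher in the lateral lobe. Prostate secretory genes had 6 of 10 lower in the ventral and 1 lower in the lateral lobe. Of 7 seminal vesicle genes, 0 were called in the ventral lobe and 4 were lower in the lateral lobe, where sums were 1769 to 9303 in labelled knockout and 38984 to 41164 in wild type. Without both arrays that stand apart, 3 seminal vesicle genes were higher in the ventral and 6 lower in the lateral lobe, and 1 nerve gene was lower in the lateral lobe. What part these have in the members' values was not tested.

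Between the lobes, Ghr, Igf1 and Igfbp4 were lower in lateral prostate and Igfbp5 was higher, in both genotypes. The lobes appear to have been normalized in separate runs, since array medians were 6.05 to 6.06 in lateral and 6.39 to 6.43 log2 units in ventral arrays. The labels do not say so. With a separate run per lobe, run and lobe cannot be told apart under either scaling. The median of all genes lay at -0.31 in knockout and -0.34 in wild type (lateral minus ventral), so each value is given with that after quantile normalization over all 12 arrays, which brought these medians to 0.078 and 0.049. Ghr averaged 8.21 ± 0.050 in lateral labelled knockout and 10.47 ± 0.084 in ventral knockout, a difference of -2.26 ± 0.10 (limma adjusted p = 3.42e-10), or -1.66 after quantile normalization. In wild type it was -2.43 ± 0.10 (limma adjusted p = 1.57e-10), or -1.90. Thus the lateral lobe had 4.79-fold lower Ghr signal in knockout and 5.38-fold lower in wild type as deposited.

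Igf1 averaged 7.84 ± 0.013 in lateral labelled knockout and 9.21 ± 0.14 in ventral knockout, and 7.69 ± 0.024 in lateral and 8.96 ± 0.11 in ventral wild type. Its lateral minus ventral differences were -1.37 in knockout and -1.28 in wild type (limma adjusted p = 1.18e-08 and 2.75e-08), or -0.79 and -0.78 after quantile normalization. For Igfbp4 they were -1.60 and -1.24 (limma adjusted p = 9.22e-07 and 1.24e-05), or -1.001 and -0.72. Igfbp5 averaged 11.75 ± 0.090 in lateral labelled knockout and 10.57 ± 0.19 in ventral knockout, and 11.95 ± 0.055 in lateral and 10.28 ± 0.17 in ventral wild type. It was higher by 1.19 in knockout and 1.67 in wild type (limma adjusted p = 3.59e-07 and 1.45e-08), or by 1.73 and 2.15 after quantile normalization. These 4 genes were called the same way under all 24 alternatives run. As deposited, all 4 Igf1 and all 6 Igfbp4 probe sets were below 0 and both Igfbp5 sets above 0 in each genotype. On that scale the median of all genes was itself below 0, at -0.31 in knockout and -0.34 in wild type. The Igfbp4 set nearest 0 in knockout, at -0.29, was not below that median.

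For the other members the lobe difference depended on the scaling, on single arrays or on the probe set. Igfbp2 was lower in the lateral lobe as deposited (-0.98 in knockout and -0.51 in wild type; limma adjusted p = 9.78e-05 and 0.0133), but after quantile normalization it was at -0.36 (limma adjusted p = 0.0592) and 0.052 (0.793). The wild-type call of Igfbp2 was also lost without ventral wild-type replicate 1 (-0.44; limma adjusted p = 0.0502). Igf1r, at 0.084 and 0.18 as deposited (limma adjusted p = 0.542 and 0.189), was higher by 0.71 and 0.72 after quantile normalization (1.52e-04 and 1.66e-04). Its second brightest probe set, averaging 9.27 over all arrays, was lower in the lateral lobe as deposited. That set was at -0.71 in knockout and -0.55 in wild type (limma adjusted p = 6.96e-05 and 6.33e-04 over all probe sets). The third set passed as lower in wild type (-0.22; limma adjusted p = 0.0299), and no Igf1r set passed as higher on that scale. Igfbp3 was at 0.22 and 0.26 as deposited (limma adjusted p = 0.129 and 0.0750) and at 0.69 in both genotypes after quantile normalization (2.28e-04 and 2.77e-04). On the deposited scale Igfbp3 passed in wild type without ventral wild-type replicate 3 (0.41; limma adjusted p = 0.00536), without both arrays that stand apart (0.41; 0.00763) and with the mean of its probe sets (0.58; 1.75e-04), and in knockout without lateral labelled-knockout replicate 2 (0.32; 0.0475). Igfbp6 was higher in the lateral lobe of wild type (0.49; limma adjusted p = 0.0220, or 0.95 after quantile normalization), a call lost without ventral wild-type replicate 1 (0.46) or 3 (0.45), or lateral wild-type replicate 1 (0.43) or 3 (0.45), and without both arrays that stand apart (0.45). In knockout its value, -0.28, turned to 0.27 after quantile normalization, and neither passed, though it passed as lower without ventral knockout replicate 3 (-0.48) or lateral labelled-knockout replicate 1 (-0.44). Igf2 in wild type was at 0.38 as deposited (limma adjusted p = 0.0780) and at 0.69 after quantile normalization (0.00470). It passed as deposited without ventral wild-type replicate 3 (0.50; limma adjusted p = 0.0385), without lateral wild-type replicate 2 (0.52; 0.0306) and without both arrays that stand apart (0.50; 0.0471). Igfbp2 and Igfbp5 are neighbours on chromosome 1 among protein-coding genes of GRCm38.p6, and in both genotypes as deposited their lobe differences had opposite signs.

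Markers of several cell types were also called between the lobes in these arrays, and their counts are given as deposited only. On that scale 53.1% of all genes were called lower and 14.2% higher in the lateral lobe of knockout. In wild type these shares were 55.8% and 12.3%. Leukocyte genes were lower in the lateral lobe for 16 of 19 in knockout and 17 of 19 in wild type, with summed linear signal of 1857 to 2010 in lateral labelled knockout and 4140 to 4930 in ventral knockout, and of 2135 to 2240 in lateral and 3585 to 4168 in ventral wild type. Smooth muscle genes were higher for 5 of 15 in knockout and 15 of 15 in wild type. Fibroblast and matrix genes had 2 of 21 higher and 13 lower in knockout, and 9 higher and 8 lower in wild type. Luminal genes had 1 of 11 higher and 7 lower in knockout, and 2 higher and 8 lower in wild type, and all 7 seminal vesicle genes were higher in each genotype. Their part in the members' lobe differences was not tested.

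In counts, 1 member was called higher and 4 lower in the lateral lobe of knockout, beside 14.2% and 53.1% of all genes. In wild type 2 were higher and 4 lower, beside 12.3% and 55.8%. After quantile normalization 3 were higher and 3 lower in knockout and 5 higher and 3 lower in wild type, while the share of higher genes among all called moved to 56.8% in knockout and 55.3% in wild type, against 21.1% and 18.1% as deposited. Centring each array on its median gave 3 higher and 4 lower members in knockout and 5 higher and 3 lower in wild type, with 52.6% and 51.5% of called genes higher. The comparisons of genotype and of lobe share arrays.

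**Figure D5:**
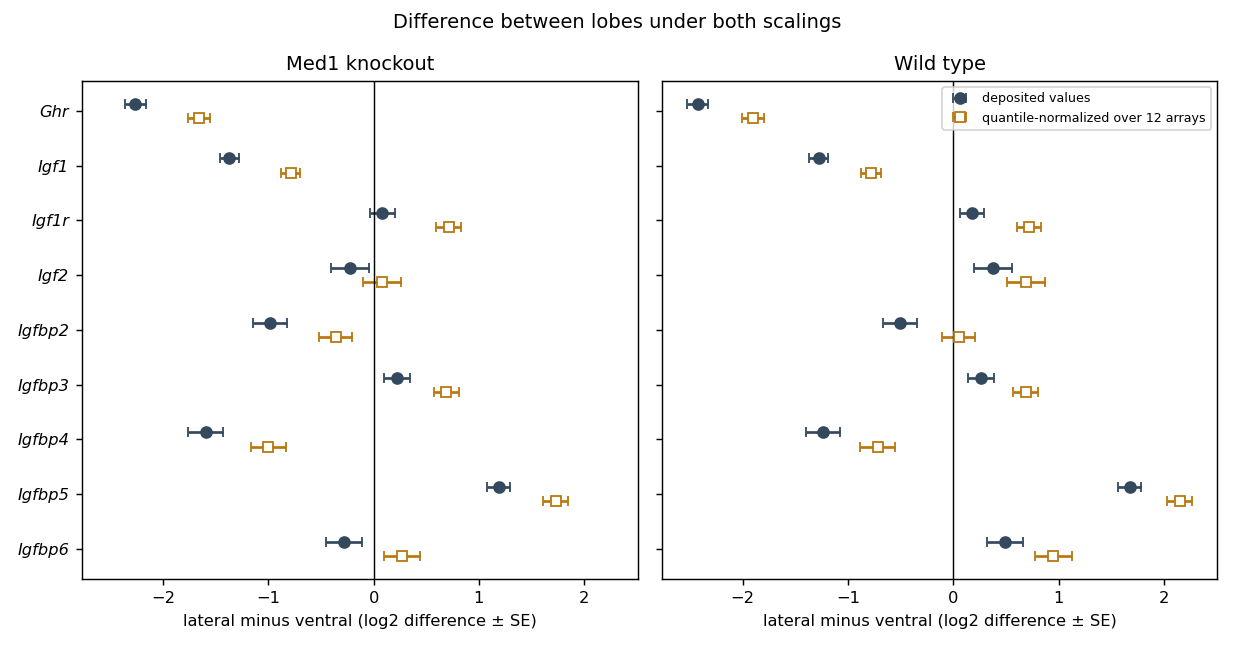
Lateral minus ventral prostate for the 9 genes (log2 difference ± SE, horizontal axis) in Med1 knockout (left) and wild type (right), as deposited (filled circles) and after quantile normalization over the 12 arrays (open squares). Ghr, Igf1 and Igfbp4 lie below 0 and Igfbp5 above 0 in all 4 cases, while Igfbp2 in wild type lies on opposite sides of 0 in the 2 scalings.

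Ordered by group mean from highest to lowest, Ghr and Igf1 ran from ventral knockout through ventral wild type and lateral labelled knockout to lateral wild type, with no overlap between neighbours. Igfbp5 ran from lateral wild type through lateral labelled knockout and ventral knockout to ventral wild type, also without overlap. These 3 orders were the same after quantile normalization. The share of all genes whose 4 groups separate without overlap was not counted, so this only describes the members. Igfbp4 had the order of Ghr, but its lateral groups overlap. All neighbouring groups of Igfbp3 overlap, and the orders of Igf1r, Igf2, Igfbp2 and Igfbp6 changed with quantile normalization.

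Other genes of the axis showed no common direction. Of 95 listed, 87 were measured, and 8 were called higher and 6 lower in the ventral knockout by limma, beside 5.88% and 3.2% of all genes, with a median of -0.022 against -0.020 for all genes. Laterally 1 was higher and 2 lower, beside 1.62% and 3.42%. Without both arrays that stand apart the ventral counts were 6 higher and 5 lower. Proteases that cut IGF binding proteins and their inhibitors had the most ventral calls, with 3 of 12 higher and 3 lower. Mmp7, a metalloprotease, averaged 7.81 ± 0.19 in ventral knockout and 9.93 ± 0.26 in ventral wild type (-2.12 ± 0.12; limma adjusted p = 5.18e-07), and Adam28, a membrane metalloprotease, fell as well (-0.69 ± 0.13; 0.00406). Mmp7 is also on the list of prostate secretory genes, of which 6 of 10 were lower in the ventral lobe, so it is counted in both lists. The stanniocalcins, which inhibit PAPP-A proteases, moved apart, with Stc1 higher (0.53 ± 0.10; limma adjusted p = 0.00561) and Stc2 lower (-0.48 ± 0.11; 0.0194). In the lateral lobe the plasminogen activator Plau averaged 5.69 ± 0.53 in labelled knockout and 10.74 ± 0.24 in wild type (-5.05 ± 0.23; limma adjusted p = 1.21e-08), 1 lower of 12. The summed seminal vesicle signal of these arrays was 1769 to 9303 in labelled knockout and 38984 to 41164 in wild type. What part this has in the Plau difference was not tested.

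Receptors and further binding proteins gave single calls. Igfbp7, an IGF binding protein of low affinity, averaged 10.996 ± 0.046 in ventral knockout and 10.40 ± 0.18 in ventral wild type (0.59 ± 0.096; limma adjusted p = 0.00169). Lrp1, an endocytic receptor that also binds IGFBP3, rose in the ventral knockout (0.51 ± 0.12; limma adjusted p = 0.0185), 1 of 12 in its list. Igfals, the acid-labile subunit of the circulating IGF complex, averaged 5.43 ± 0.095 in lateral labelled knockout and 4.96 ± 0.052 in lateral wild type (0.47 ± 0.11; limma adjusted p = 0.0225), both dim. Of hormones and other ligands 0 of 6, and of IGF2 mRNA-binding proteins 0 of 2, were called by limma in either lobe.

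Downstream of the receptors, 2 of 14 genes of JAK2-STAT5 signalling were higher and 1 lower in the ventral knockout. Jak2, the kinase bound to Ghr, averaged 9.47 ± 0.27 in ventral knockout and 9.02 ± 0.060 in ventral wild type (0.45 ± 0.12; limma adjusted p = 0.0277). Cish, a STAT5 target that restrains the pathway, rose too (0.49 ± 0.13; limma adjusted p = 0.0334), while Stat5a itself fell (-0.57 ± 0.12; 0.0110). Without both arrays that stand apart 0 of the 14 were higher and 1 lower. Jak2 lost its call without any of 5 ventral arrays left out singly, all but knockout replicate 2, and Cish without any of 5, all but knockout replicate 1. In the lateral lobe 0 of the 14 were called. Among 13 insulin receptor substrates and adaptors, Dok1 rose (0.49 ± 0.11; limma adjusted p = 0.0161), while the dim Irs3 (-0.41 ± 0.11; 0.0323) and Irs4 (-0.37 ± 0.11; 0.0466) fell in the ventral knockout. Of 24 PI3K, AKT and mTOR genes 0 were called in the ventral lobe by limma and 1 in the lateral lobe, the AKT-related kinase Sgk1, lower in labelled knockout (-0.77 ± 0.091; limma adjusted p = 1.50e-04). Among the alternatives run, the calls of Igfbp7, Mmp7, Plau and Sgk1 held in 23 of 23, those of Adam28 and Stc1 in 22 of 23, Stat5a in 20, Dok1 in 18, and Lrp1 and Stc2 in 17. The call of Jak2 held in 14 of 23 and that of Cish in 13 of 23. Both were lost with only the ventral arrays in the model, and that of Cish also after quantile normalization. Irs3 held in 14 of 22, Igfals in 15 of 22 and Irs4 in 4 of 22, not without both arrays that stand apart (-0.31; limma adjusted p = 0.176).

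The genes whose pattern was most like that of Ghr, by Pearson correlation over the 12 arrays after the mean of each lobe was subtracted, were Cgnl1, a junction protein, Fuca1, a lysosomal fucosidase, and Slc40a1, the iron exporter ferroportin, each at 0.948 among 13644 genes compared. The points share groups and arrays, so this is a description. Slc40a1 rose in both lobes (0.64 ventral and 0.80 lateral; limma adjusted p = 0.00760 and 0.00204), and Fuca1 rose in the lateral lobe (0.36; limma adjusted p = 0.00982), a call lost without lateral wild-type replicate 3. Cgnl1 was higher there by 0.29 (limma adjusted p = 0.0314), a call lost without any single lateral array.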

How the data were processed

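Biotin-labelled cDNA from total RNA of 12 samples was hybridised to Affymetrix arrays. The authors deposited log2 signals made with Affymetrix Expression Console and RMA, per the submitters' processing notes. Neither versions nor settings are recorded in the labels. Of 45101 probe sets, 34958 carry 1 gene symbol in the platform annotation, 932 several and 9211 none listed here. Of the 34958, 34754 were matched to RefSeq by gene identifier and take its symbol, and the rest keep their own. Together they give 18194 genes, each read by its brightest probe set. Samples were grouped by title. A linear model with the 4 group means was fitted to all genes with limma 3.58.1 in R 4.3.3 (8 residual degrees of freedom), p-values were adjusted by Benjamini-Hochberg over all genes, and calls were made at an adjusted p under 0.05. Probe sets were also tested singly. Arrays of a group correlated at 0.992 to 0.996, and their number limits the precision. The model was tested on simulated data. Deviations of same-numbered samples, compared between genotypes within a lobe and between lobes within a genotype, correlated at -0.061 to 0.116, above 0.1 for 1 of 12 pairs, so no pairing was used. Alternatives changed samples, normalization, filter, probe-set rule, variance model, threshold and replicates. Named genes were the members, Med1, up to 4 called genes of smallest p per axis list, and the 3 genes most like each member called between genotypes. Members and lists were chosen with earlier results of these data known. Promoter windows come from RefSeq (GRCm38.p6).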

Additional observations from a re-analysis of the deposited data

Results flagged for a closer look

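By limma's test of the ventral effect minus the lateral effect, 6 of the 87 other axis genes were called higher and 4 lower, beside 6.51% and 2.8% of all genes. The values follow for the 8 of these that are named above and for 1 probe set of a member. For the dimmer Igfbp3 probe set this difference was 0.85 ± 0.16 (SE; limma adjusted p = 0.00644), with the brightest Igfbp3 probe set at 0.041. It was 5.63 ± 0.33 for Plau (limma adjusted p = 3.30e-07), 0.87 ± 0.14 for Igfbp7 (0.00120), 0.85 ± 0.13 for Sgk1 (9.64e-04) and 0.76 ± 0.17 for Lrp1 (0.0137). It was below 0 for Mmp7, at -2.02 ± 0.17 (limma adjusted p = 1.29e-05), for Adam28, at -0.93 ± 0.18 (0.00543), for Igfals, at -0.76 ± 0.15 (0.00668), and for Irs3, at -0.67 ± 0.16 (0.0158). The differences of Plau, Igfbp7, Sgk1 and Mmp7 passed in all 22 alternatives run for them and that of Igfals in all 21, while Lrp1 passed in 20 of 22, Adam28 in 21 of 22 and Irs3 in 20 of 21.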

How the results depend on the processing

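In the ventral lobe 1 member was called between genotypes; 0 were called with only the ventral arrays in the model, with the mean of a gene's probe sets, at an adjusted p under 0.01, at 1.5-fold or more and without both arrays that stand apart, and 0 to 3 with single arrays left out (3 without knockout replicate 3: Igf2, Igfbp2 and Igfbp6). In the lateral lobe the 1 call became 0 at 1.5-fold or more. For the ventral minus lateral effect the count of 0 became 2 with a replicate block (Igfbp5 and Igfbp6; the numbers do not pair the samples, with correlations of deviations of -0.061 to 0.116 between genotypes within a lobe and between lobes within a genotype), 2 with the dimmest 40% of genes left out, 2 with a variance trend, 1 with the mean of probe sets (Ghr) and 0 to 2 with single arrays left out. Directions turned for values that had not passed, except Igfbp2. With the mean of probe sets these were Igfbp3 in the ventral lobe (0.18), Igf1 (-0.015) and Med1 (0.045) in the lateral lobe, Igf1r between lobes (-0.11 in each genotype) and Irs4 in the ventral minus lateral effect (0.012). After quantile normalization they were Igfbp3 in the ventral minus lateral effect (-0.0044), Igf2 (0.079) and Igfbp6 (0.27) between knockout lobes and Igfbp2 between wild-type lobes (0.052), and after centring Igf2 (0.14) and Igfbp6 (0.080) between knockout lobes. Without both arrays that stand apart, Igfbp3 in the ventral lobe was 0.085 and Igfbp4 in the lateral lobe -0.036. With single arrays left out, ranges crossed 0 for Igfbp3 (-0.14 to 0.085) and Igf1r (-0.24 to 0.036) in the ventral lobe, Igfbp4 (-0.13 to 0.26), Igf2 (-0.17 to 0.14) and Igfbp2 (-0.22 to 0.070) in the lateral lobe, Igfbp3 (-0.057 to 0.19) and Igf1r (-0.021 to 0.25) in the ventral minus lateral effect, and Igf1r between knockout lobes (-0.071 to 0.20). The causes were not tested. Over all genes, 1652 were called in the ventral lobe, against 965 with only its arrays, 666 at an adjusted p under 0.01, 634 at 1.5-fold or more and 860 without both arrays that stand apart. The model with only a comparison's own arrays was not run for the ventral minus lateral effect, which uses all arrays, and Igf2 has no value with the dimmest 40% left out.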
